A study of Mus musculus with 12 samples.

Results

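The kidney of the db/db mouse was compared with that of the db/m mouse at 8 weeks of age. The contrast is between the 3 arrays titled db/db and the 3 titled db/m at that age, 6 of the 12 arrays of the study, and covered every probe set that is no array control. The other 6 arrays, of the same genotypes at 16 weeks, entered the normalisation, the filter and the estimate of the variance, and a fit of the 6 arrays alone had 1822 probe sets past the threshold given below instead of 1323. Of 12422 such probe sets 6949 were above a filter on dim signal and were tested, and they stood for 5360 named genes. The db/db mouse is homozygous for the db mutation of the leptin receptor gene Lepr, becomes obese and then diabetic, and is a widely used model of type 2 diabetes and its kidney disease. The db/m mouse carries a single mutated copy, stays lean and served as the control. Total RNA came from whole kidney and the labels call the arrays of a group biological replicates. The labels do not state strain, sex, diet or blood glucose, nor whether an array held 1 mouse or a pool.

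Leptin is a hormone of fat cells that restrains appetite, and signals through its receptor, the kinase JAK2 and STAT transcription factors. Most of the kidney is proximal tubule, which takes back filtered glucose, amino acids and phosphate, makes glucose, activates vitamin D and detoxifies drugs, and which burns fatty acids to do so. In male mice many of its enzymes are under androgen control, and growth hormone, glucocorticoids and insulin act on it as well.

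Intensity is the brightness of a probe set on a linear scale after quantile normalisation, in arbitrary units, and 155 is the floor to which dimmer values were raised. Where arrays of a group are at the floor, the size of a change is a lower limit and its SE rests on the floor. Values of 3 arrays are in the order of replicates 1, 2 and 3. A change is the mean log2 intensity of db/db minus that of db/m with its standard error (SE). Rose and fell are written of genes with an adjusted p under 0.05 from limma, a linear model with a moderated variance, after Benjamini-Hochberg adjustment over all 6949 probe sets. The levels of different genes were not compared, since probe sets differ in how they hybridise.

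Arrays of the same genotype correlated at 0.959 to 0.971 and arrays of different genotype at 0.900 to 0.931 (Pearson's r of log2 values), and the first principal component, with 60.8% of the variance, separated the genotypes. RNA quality moved with genotype. The 3' to 5' signal ratio of the actin control, which grows as RNA is degraded, was 1.46 to 2.14 on db/m and 1.20 to 1.32 on db/db arrays, and that of pyruvate carboxylase was 17.4, 7.68 and 3.24 against 2.08, 3.34 and 1.77. The part of this difference in the changes given here was not tested directly. With the actin and pyruvate carboxylase ratios as a covariate, all 1323 probe sets that passed kept their sign and 117 of them still passed. Among the genes named here, those that did were Ace, Acy3, Adh1, Alb, Aldh1a1, Alox15, Bcat1, Bhmt, Cd36, Cndp2, Cyp4a14, Cyp51, Cyp7b1, Fgf1, Fmo5, Galm, Ggct, Ghr, Gpx1, Gsta2, H2-M9, H3c14, Hsd11b1, Hsd17b2, Hsd17b11, Idi1, Igf1, Men1, Mgst1, Mt3, Nqo1, Nup54, Odc1, Plau, Slc15a2, Slc22a30 and Ugt2b5, as well as Atp4a. Markers of the tissue were present: Kap, an abundant proximal tubule transcript of the mouse, had intensities of 64130 to 75960 on the 6 arrays, and Slc34a1, Umod and Aqp2 did not pass. Lepr had no probe set above the filter, so the genotype could not be checked on the mutated gene.

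Of the 6949 probe sets 1323 passed (19%), of which 594 rose (8.55%) and 729 fell (10.5%) with the db/db genotype. Changes of at least 2-fold numbered 233 upward (3.35%) and 252 downward (3.63%). Counted by gene, with the brightest probe set of each, 447 of 5360 rose (8.34%) and 588 fell (11%). The 2 groups did not overlap in 3209 probe sets (46.2%). Most called genes named below were chosen among genes without overlap, so a lack of overlap in them is no further support. The share that passed was 16.8% in the 2317 dimmest probe sets, 19.5% in the 2316 of middle intensity and 20.8% in the 2316 brightest. Leaving out 1 array lowered the number of calls, to 776, 794 and 783 without db/m replicates 1, 2 and 3 and to 710, 1174 and 658 without db/db replicates 1, 2 and 3. When arrays were scaled only to a common median, the median change over probe sets was -0.245 on the log2 scale instead of -0.01, and 410 probe sets were higher and 1749 lower. With the values as deposited 1072 were higher and 616 lower. Below, a gene whose call ended without an array is given with that array, and one whose call ended with a common median is given with that adjusted p.

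**Figure D1:**
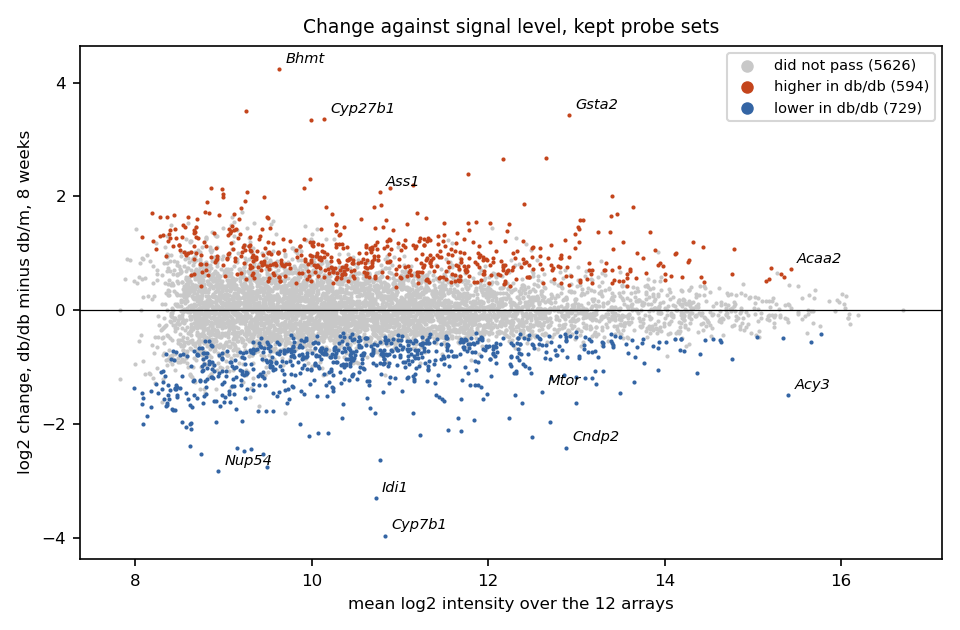
Change at 8 weeks (log2 intensity, db/db minus db/m, vertical) against the mean log2 intensity (horizontal) for the 6949 probe sets tested. Red points are the 594 that rose, blue points the 729 that fell and grey points the 5626 that did not pass, and both directions were called at every level of intensity.

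Cholesterol synthesis held some of the lowest genes of the db/db kidney. The pathway runs from acetyl-CoA through mevalonate and isopentenyl diphosphate to farnesyl diphosphate, squalene, lanosterol and cholesterol, and cells switch it off when sterol is plentiful. Of its 15 genes tested 4 fell (26.7%, against 11% over all genes) and none rose (against 8.34%). The median change was -0.55 against -0.04 over all genes tested. With the values as deposited 5 were lower and 2 higher. The 4 were Mvd, Idi1, Fdps and Cyp51, and 3 of them are neighbours in the stretch from mevalonate to farnesyl diphosphate.

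Idi1, which converts isopentenyl diphosphate to its isomer, had intensities of 8835, 7196 and 9787 on the db/m arrays and 704, 1057 and 875 on the db/db arrays. The lowest control value was far above the highest db/db value (-3.30, SE 0.35, adjusted p from limma 0.000408). Cyp51, the lanosterol demethylase, had 2638, 2367 and 2388 in db/m and 536, 747 and 593 in db/db kidneys. Its groups were as clearly apart (-1.99, SE 0.16, adjusted p from limma 0.000185). Mvd, which makes isopentenyl diphosphate, had 1853, 1790 and 2140 against 1021, 1022 and 809, again without overlap (-1.02, SE 0.20, adjusted p from limma 0.00729). Fdps, the farnesyl diphosphate synthase, had 5290, 3222 and 3034 against 1772, 2163 and 2283. All its db/m values were higher (-0.85, adjusted p from limma 0.0232), but the call ended without db/m replicate 1 (0.0739) and without db/db replicate 1 (0.0879).

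The remaining steps did not pass. Hmgcs1, at the entry, changed by -0.29, Fdft1, the squalene synthase, by -0.41, Sqle, the squalene epoxidase, by -0.55, Lss, which closes the ring, by -0.60, and Msmo1, a later demethylase, by -0.92. Mvk, mevalonate kinase, changed by 0.39. The probe sets differed for a pair of late enzymes. Nsdhl changed by -0.45 on its brightest probe set and by -0.94 on another that passed (adjusted p from limma 0.00317), and Tm7sf2 by 0.52 on the brightest and -1.54 on another that passed (adjusted p from limma 0.0350).

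The promoters of the falling genes are shown because sterol-controlled genes are commonly switched through a sterol regulatory element beside an inverted CCAAT box, ATTGG, which reads as CCAAT from the opposite strand. They are RefSeq sequences of the GRCm38.p6 assembly, which was not used to make the intensities. Each is the stretch of 100 bases just before the transcription start, 5' to 3' on the gene's own strand, and capitals mark the CCAAT box in either orientation. They lie at chr13:8885506-8885605 (plus strand) for Idi1, chr5:4104698-4104797 (minus strand) for Cyp51 and chr8:122443423-122443522 (minus strand) for Mvd.
Idi1: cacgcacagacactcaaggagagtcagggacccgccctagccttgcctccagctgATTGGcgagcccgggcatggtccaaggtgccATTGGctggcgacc
Cyp51: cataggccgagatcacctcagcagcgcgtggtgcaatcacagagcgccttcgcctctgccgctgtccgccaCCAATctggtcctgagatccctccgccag
Mvd: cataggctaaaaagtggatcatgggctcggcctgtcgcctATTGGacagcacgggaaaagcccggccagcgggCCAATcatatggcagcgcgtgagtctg
Idi1 and Mvd hold a pair of boxes in this stretch and Cyp51 one. Searched over the 250 bases before the start, on both strands, ATTGG was in the promoters of all 12 cholesterol synthesis genes that the table lists, those that did not pass included, and in 33.8% of all 32851 promoters. A match is a description of the letters only.

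Genes that move or store lipid changed in both directions. Apoe, the apolipoprotein that carries cholesterol out of cells, had 7664, 5465 and 4521 on the db/m arrays and 15527, 12698 and 11633 on the db/db arrays. Every db/db value was above every db/m value (1.20, SE 0.25, adjusted p from limma 0.00826, and 0.0513 with a common median). Cyp7b1, an oxysterol hydroxylase, fell by 3.96 on its brightest probe set and by 2.63 on another, and was the gene with the largest fall. In the list of fatty acid synthesis and storage 1 of 27 genes rose (3.7%) and 5 fell (18.5%), against 8.34% and 11% over all genes. The number that fell was 2 without db/m replicate 2 or 3 or db/db replicate 3, and 3 without db/m replicate 1 or db/db replicate 2. Me1, the malic enzyme that supplies NADPH for fat synthesis, had 14856, 15695 and 15981 against 6414, 8632 and 7181, a fall on all 3 db/db arrays (-1.08, SE 0.22, adjusted p from limma 0.00802). Cd36, a fatty acid and scavenger receptor, had 432, 635 and 643 against 156, 219 and 165, near the floor in db/db (-1.66, SE 0.27, adjusted p from limma 0.00304). Plin2, the coat protein of lipid droplets, did not pass (-0.36).

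Fatty acid oxidation changed at its omega branch. Cyp4a14, an omega-hydroxylase and a target of the lipid sensor PPAR-alpha, had 1730, 1496 and 447 on the db/m arrays and 7809, 6663 and 5720 on the db/db arrays. The groups were apart although db/m replicate 3 lay below the other controls (2.67, SE 0.43, adjusted p from limma 0.00299). Its relative Cyp4a10 rose by 1.69 (SE 0.24). These were 2 of the 3 omega-oxidation genes tested. Mitochondrial beta-oxidation had 12 genes, of which 1 rose and 1 fell (8.33% each, against 8.34% and 11% over all genes). Acaa2, its last enzyme, had 31426, 31865 and 27487 against 48162, 51794 and 49030 (0.72, SE 0.12, adjusted p from limma 0.00355, and 0.333 with a common median). In peroxisomes, Amacr, which prepares branched-chain fatty acids and bile acid precursors for oxidation, fell by 1.89 (SE 0.31) and Hao2, a hydroxy acid oxidase, rose by 1.00 (SE 0.17, adjusted p from limma 0.00377, and 0.0923 with a common median). Of 25 peroxisomal genes 2 rose (8%) and 3 fell (12%), near the shares over all genes, while with a common median none was higher and 11 were lower. The number that fell was 2 without db/m replicate 1 and 1 without any other array.

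Growth hormone and leptin act through the same kind of receptor, which uses JAK2, and induce SOCS proteins that shut the signal off. Of 6 genes of leptin and cytokine feedback tested 4 fell, Socs2, Cish, Jak2 and Ptpn1, and Lep rose, with a median of -0.76. Socs2, a feedback inhibitor of the growth hormone receptor, had 697, 1220 and 1568 on the db/m and 520, 419 and 209 on the db/db arrays (-1.62, SE 0.48, adjusted p from limma 0.0365). Cish, another such inhibitor, had 1044, 1958 and 3104 against 953, 649 and 829 (-1.21, SE 0.36, adjusted p from limma 0.0359). In both genes db/m replicate 1 was the control nearest to the db/db values. Jak2 had 1046, 953 and 1035 against 642, 566 and 641, and Ptpn1, a phosphatase that dampens insulin and leptin signals, 3410, 3217 and 3014 against 1652, 2139 and 1740. The groups did not overlap in any of the 4, yet the calls depended on single arrays: 2, 0 and 0 of the 4 were called without db/m replicates 1, 2 and 3, and 1, 1 and 0 without db/db replicates 1, 2 and 3. With the values as deposited 1 of the 4 was called.

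The growth hormone receptor itself was also lower. Ghr had 16011, 13059 and 15452 in db/m and 6669, 6872 and 6042 in db/db kidneys. The db/db values were close together and well under the controls (-1.18, SE 0.13, adjusted p from limma 0.000531). A dimmer probe set of Ghr, which also encodes a soluble binding protein, changed by -0.35 and did not pass. Stat3, a transcription factor of this pathway, did not pass (-0.06). Ghr and Jak2 were chosen after their values were seen, as were Ptpn1, Stat3 and Igfbp3.

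The insulin-like growth factor axis changed as well. Igf1 had 2575, 1997 and 1942 on the db/m arrays and 6901, 5023 and 7027 on the db/db arrays, with no overlap (1.54, SE 0.22, adjusted p from limma 0.00166). Igfbp1, a binding protein that insulin represses in liver, had 1175, 1099 and 701 against 1678, 3920 and 2881, and db/db replicate 1 was the nearest to the controls (1.46, SE 0.32, adjusted p from limma 0.0112). Igfbp3, the main binding protein of the circulation, had 3102, 3907 and 3486 against 1217, 2425 and 1811 (-0.99, adjusted p from limma 0.0227), while a dimmer probe set changed by 0.43 and did not pass. Its call ended without db/m replicates 2 and 3 (0.0766 and 0.0616) and without db/db replicates 1 and 3 (0.0841 and 0.0609). Of all 51 genes of insulin and growth factor signalling tested 4 rose (7.84%) and 10 fell (19.6%), against 8.34% and 11% over all genes. The number that fell was 8, 4 and 4 without db/m replicates 1, 2 and 3 and 5, 8 and 4 without db/db replicates 1, 2 and 3. Fgf1 fell by 1.20 (SE 0.19) and its receptor Fgfr1 by 1.01 (SE 0.18). Mtor, the kinase that couples nutrients to growth, had 8291, 7415 and 7893 against 2563, 3214 and 3024 (-1.43, SE 0.18, adjusted p from limma 0.000884), but its dimmer probe set changed by 0.29 and did not pass.

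Lep, the transcript of leptin, had 1286, 1040 and 1168 in db/m and 1921, 2451 and 3386 in db/db kidneys, with no overlap (1.12, SE 0.25, adjusted p from limma 0.0122). Leptin is made by adipocytes. The summed intensity of 9 adipose markers was 10010 to 15873 on the db/m and 8157 to 13316 on the db/db arrays, none of the 9 was at the floor on all 6 arrays, and Adipoq was at the floor on the 3 db/m arrays and at 2379, 225 and 159 on the db/db arrays. The part of adipose tissue in the Lep signal was not tested. In whole kidney, more RNA per cell and more cells of a type cannot be told apart.

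**Figure D2:**
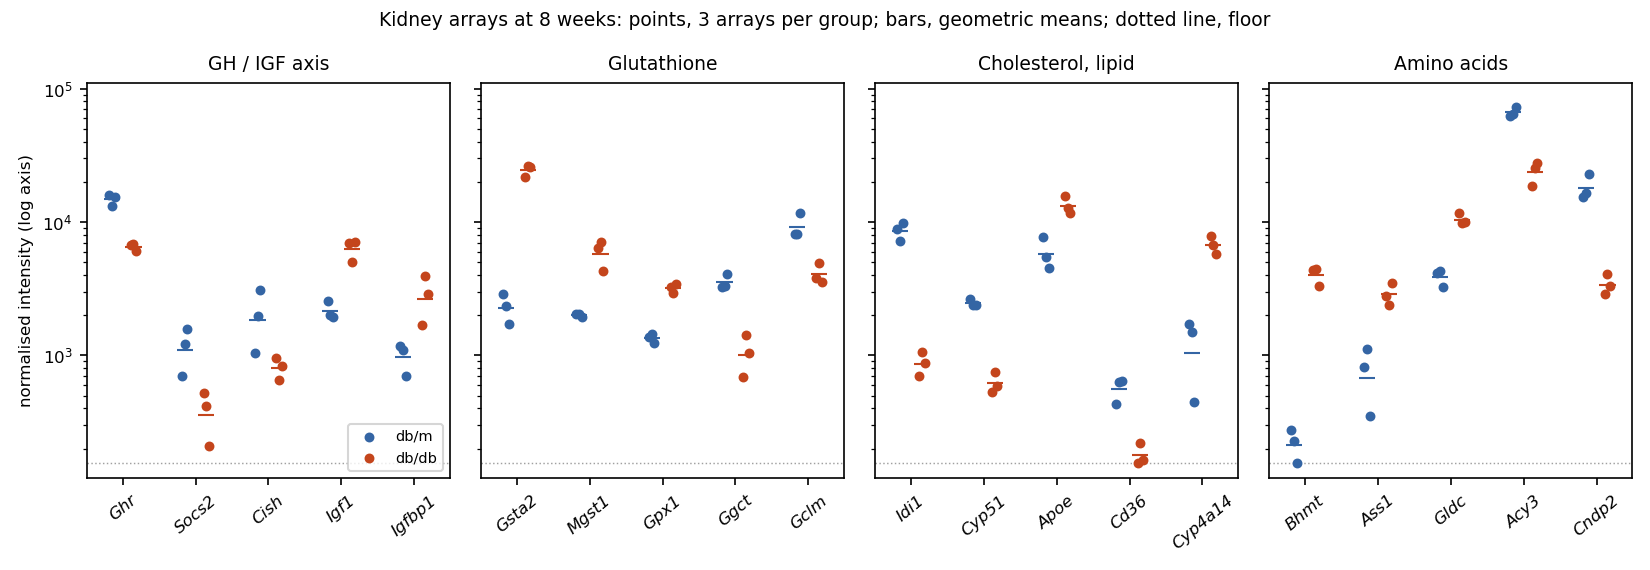
Intensity on each of the 6 arrays (logarithmic axis) of 20 genes in 4 groups, where points are arrays, bars are geometric means of the 3 arrays of a genotype and the dotted line is the floor of 155. The db/db points of Idi1, Ghr and Cndp2 lie below all db/m points, those of Gsta2, Igf1 and Bhmt lie above them, and the controls of Cyp4a14, Ass1 and Cish scatter most.

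Glutathione enzymes split by role. Glutathione is the tripeptide that cells use against peroxides and reactive drugs, transferases attach it to its targets, and the gamma-glutamyl cycle makes and recycles it. Of 15 transferases tested 7 rose (46.7%, against 8.34% over all genes) and none fell, with a median of 0.52. The median was 0.03 with a common median, where 4 were higher and 3 lower, and 0.36 with the values as deposited, where 6 were higher and 1 lower. Of 7 genes of synthesis and recycling 1 rose (14.3%) and 4 fell (57.1%, against 11% over all genes), with a median of -0.58. With 1 array left out, 5 transferases rose, or 4 without db/db replicate 1, and 2 genes of synthesis and recycling fell without db/m replicate 2 or 3 or db/db replicate 1.

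Gsta2, an alpha class transferase, had 2906, 2333 and 1730 on the db/m arrays and 21577, 26481 and 25835 on the db/db arrays. It was the second largest rise among named genes and the groups were far apart (3.43, SE 0.29, adjusted p from limma 0.000185). Mgst1, the microsomal transferase, had 2054, 2037 and 1934 against 6364, 7079 and 4280 (1.53, SE 0.20, adjusted p from limma 0.00100). The controls were close together and db/db replicate 3 was the lowest of its group. The other 5 calls ended without single arrays: Gsta3 (1.22, ended without db/m replicate 1 at adjusted p 0.0676 from limma), Gsta4 (1.19, without db/db replicate 1, 0.0590), Gstm3 (0.59, without db/db replicate 1, 0.0535), Gsto1 (0.79) and Gstk1 (0.69). The last ones each lost their call without 5 of the 6 arrays in turn: Gsto1 held only without db/m replicate 1 and Gstk1 only without db/db replicate 1, with the highest values at 0.0829 and 0.120, both without db/m replicate 3. With a common median Gstm3, Gsto1 and Gstk1 did not pass (0.339, 0.152 and 0.370). Gsta4, Gsto1, Gstk1 and Gstm3 were chosen after their values were seen.

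On the side of synthesis and turnover, Ggct, the cyclotransferase that releases 5-oxoproline in the gamma-glutamyl cycle, had 3278, 3321 and 4068 against 692, 1428 and 1047, well below the controls on every db/db array (-1.81, SE 0.24, adjusted p from limma 0.000948). Gclm, the modifier subunit of the enzyme that starts glutathione synthesis, had 8112, 8188 and 11689 against 3821, 4882 and 3541 (-1.19, SE 0.22, adjusted p from limma 0.00521). Its catalytic partner Gclc changed by -0.53 and did not pass. Gss, the next enzyme (-0.63), Dpep1, a dipeptidase of the brush border (-0.58), and Gsr, which reduces oxidised glutathione (0.52), passed with all arrays, but lost their calls without single arrays. Gss did so without db/m replicates 2 and 3 and db/db replicates 1 and 2 (adjusted p from limma 0.0657, 0.0780, 0.0735 and 0.0667). Dpep1 did so without each array but db/db replicate 3 (0.0578 to 0.115), and Gsr without db/m replicates 1 and 2 and db/db replicates 2 and 3 (0.0793, 0.0652, 0.0586 and 0.0807), as well as with a common median (0.839). Gclc, Dpep1 and Gsr were chosen after their values were seen.

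Among peroxidases and reductases, Gpx1, a selenium enzyme that removes hydrogen peroxide, had 1380, 1458 and 1246 in db/m and 3260, 2920 and 3437 in db/db kidneys, a clear gap (1.24, SE 0.16, adjusted p from limma 0.000776). Nqo1, a quinone reductase and standard target of the oxidant sensor NRF2, had 1168, 1151 and 1021 against 3689, 3605 and 3544 (1.70, SE 0.22, adjusted p from limma 0.000884), and its second probe set rose by 1.61. Gclm, another standard target of NRF2, fell, as given above. The cytosolic superoxide dismutase Sod1 fell by 0.72 (SE 0.16) and thioredoxin, Txn1, by 0.56 (SE 0.12). The metallothioneins, which bind zinc and copper, rose: Mt3 by 1.42 (SE 0.17) and Mt1 by 1.20 (SE 0.27, adjusted p from limma 0.0127, and 0.129 with a common median). Of 7 genes of metallothioneins and zinc these were the 2 that passed. Pgd, which makes NADPH in the pentose phosphate pathway, rose by 1.05 (SE 0.22).

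**Figure D3:**
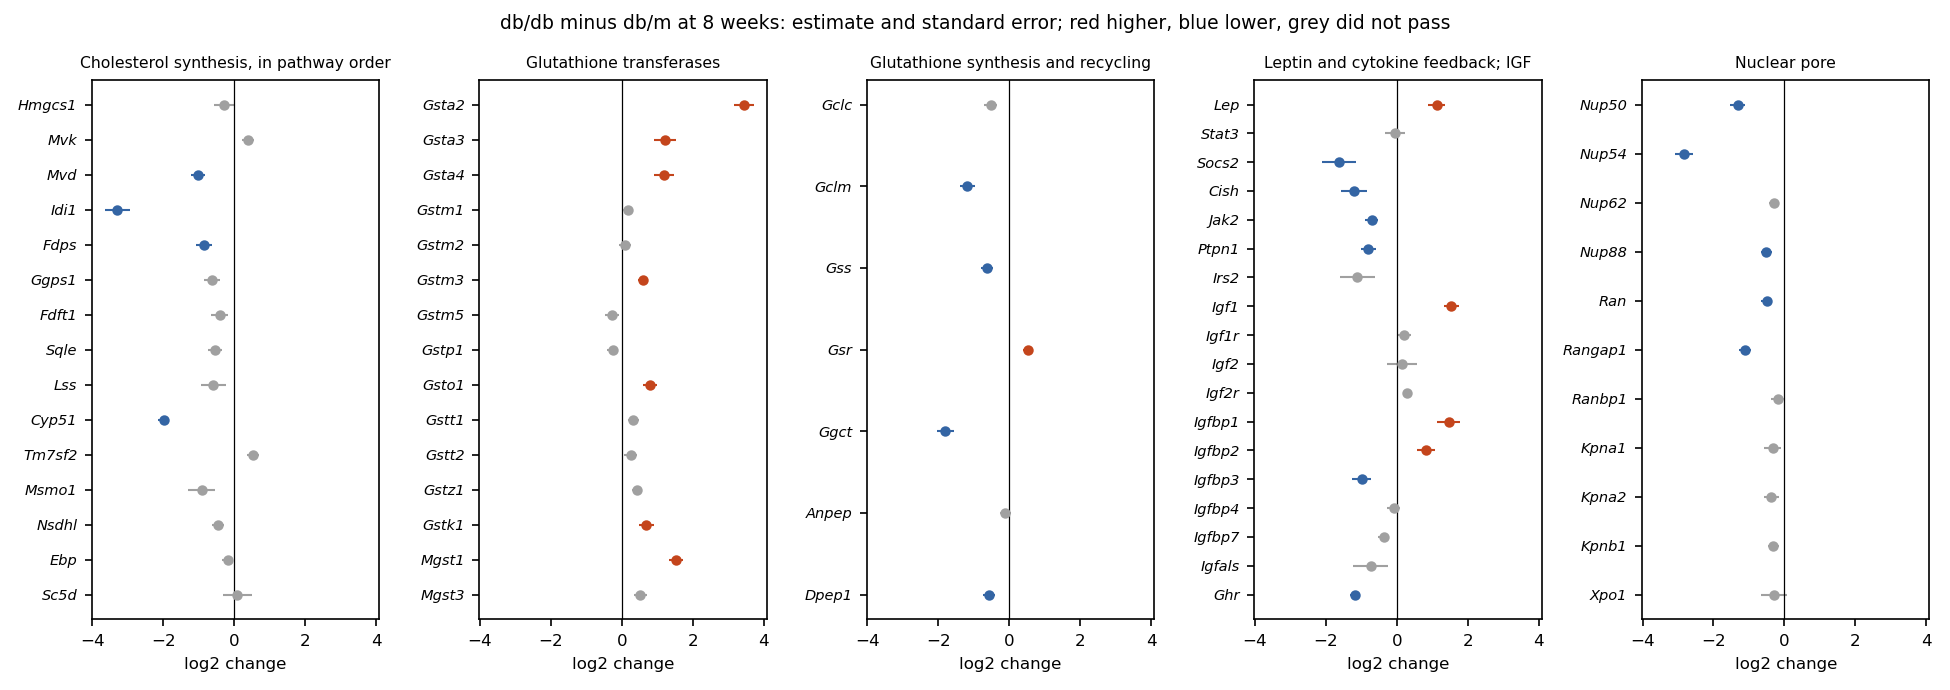
Change at 8 weeks (log2 intensity, db/db minus db/m) with its standard error for genes of cholesterol synthesis in pathway order, glutathione transferases, glutathione synthesis and recycling, leptin and cytokine feedback with the IGF axis, and the nuclear pore. Points are the brightest probe set of a gene: Idi1 at -3.30 and Nup54 at -2.83, where 2 db/db arrays are at the floor, are the lowest and Gsta2 at 3.43 the highest.

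The largest rise of all named genes was that of Bhmt, which passes a methyl group from betaine to homocysteine and so returns methionine, and which also consumes the osmolyte betaine. Its intensities were 274, 227 and 155 on the db/m arrays and 4374, 4473 and 3335 on the db/db arrays. The controls were near the floor, replicate 3 at it, and the db/db kidneys far above it (4.24, SE 0.48, adjusted p from limma 0.000531). A dimmer probe set rose by 1.72. The rest of the methionine cycle did not pass: among 10 genes tested Bhmt alone did, and Gnmt, the glycine methyltransferase, changed by 0.62, the related Bhmt2 by 0.34 and Ahcy, which hydrolyses S-adenosylhomocysteine, by 0.12, or by -0.41 with a common median.

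Enzymes that break down amino acids were divided by pathway. Of 10 genes of glutamate, proline, arginine and the urea cycle 4 rose and none fell, with a median of 0.71. Ass1, which joins citrulline to aspartate and starts the kidney's production of arginine, had 812, 1111 and 350 on the db/m and 2797, 2402 and 3484 on the db/db arrays (2.07, SE 0.44, adjusted p from limma 0.00973). Db/m replicate 3 was the lowest control, and no value overlapped. Glud1, glutamate dehydrogenase, which yields ammonia, had 7683, 7552 and 7162 against 13287, 12436 and 10479 (0.69, SE 0.13, adjusted p from limma 0.00602, and 0.261 with a common median). Got2, the mitochondrial aspartate aminotransferase (1.01, adjusted p from limma 0.0159), lost its call without db/m replicate 1 (0.0581) and without db/db replicates 1 and 3 (0.0624 and 0.0633). Prodh2, a proline dehydrogenase, rose by 0.93 (adjusted p from limma 0.0449) and lost its call whichever of the 6 arrays was left out (0.0806 to 0.127). The number called in this group was 2, 3 and 3 without db/m replicates 1, 2 and 3, and 2, 4 and 2 without db/db replicates 1, 2 and 3. Glud1 was chosen after its values were seen.

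Glycine breakdown rose at Gldc, the decarboxylase of the glycine cleavage system, which had 4172, 4319 and 3232 against 11660, 9802 and 9917 (1.43, SE 0.21, adjusted p from limma 0.00209). Acy3, an aminoacylase that removes acetyl groups from aromatic amino acids and mercapturates, fell from 62399, 64832 and 72237 to 18619, 25322 and 27776. This was among the brightest of all changed probe sets and the groups were far apart (-1.49, SE 0.17, adjusted p from limma 0.000531). Cndp2, a cytosolic dipeptidase, had 15452, 16447 and 23065 against 2869, 4038 and 3338, and it too fell far below the controls on all 3 arrays (-2.42, SE 0.21, adjusted p from limma 0.000185). Bcat1, an aminotransferase of the branched-chain amino acids, fell by 2.15 (SE 0.46), the single call among 13 branched-chain genes. Odc1, which makes the polyamine putrescine, fell by 1.64 (SE 0.23).

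Of 5 vitamin D genes tested 2 rose (40%) and 1 fell (20%), against 8.34% and 11% over all genes. The 2 that rose make and degrade the hormone. With the covariate of actin and pyruvate carboxylase none of the 18 genes of vitamin D, calcium and phosphate was called. Cyp27b1, the 1-alpha-hydroxylase that makes active vitamin D in the proximal tubule, had 470, 429 and 268 on the db/m arrays and 2803, 4822 and 4299 on the db/db arrays, with no overlap (3.36, SE 0.70, adjusted p from limma 0.00879). Cyp24a1, which degrades the hormone and is induced by it, had 1435, 3209 and 3370 against 7761, 23714 and 21485 (2.66, SE 0.76, adjusted p from limma 0.0316). Replicate 1 was the lowest of either group. The call of Cyp24a1 ended without db/m replicates 1, 2 and 3 (0.105, 0.0617 and 0.0586) and without db/db replicates 2 and 3 (0.0837 and 0.101). Vdr, the receptor, had 2749, 2482 and 2494 against 1157, 1716 and 1522 (-0.83, SE 0.18, adjusted p from limma 0.0105), but another probe set changed by 1.08 and did not pass. Calb1, the calcium-binding protein of the distal convoluted tubule and a vitamin D target, had 8632, 9448 and 9833 against 20495, 26773 and 25322, more than 2-fold apart (1.37, SE 0.23, adjusted p from limma 0.00371). The phosphate transporter Slc34a1 did not pass (0.09, and -0.45 with a common median).

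Kidney genes known to respond to androgens or to differ by sex were mostly lower. Of 13 tested 7 fell (53.8%) and 1 rose (7.69%), against 11% and 8.34% over all genes. Their median was -0.70, and 6 to 8 were called lower when 1 array was left out. Cyp7b1, which depends on androgen in the mouse kidney, had 7217, 6942 and 9700 in db/m and 538, 456 and 523 in db/db kidneys (-3.96, SE 0.44, adjusted p from limma 0.000531). Slc22a30, an organic anion transporter relative, had 6770, 6312 and 7299 against 1460, 1661 and 1557 (-2.12, SE 0.33, adjusted p from limma 0.00223). Adh1, an alcohol dehydrogenase, had 13270, 13771 and 17860 against 4082, 5187 and 5236 (-1.63, SE 0.18, adjusted p from limma 0.000531). In each of these genes the db/db arrays were tightly grouped well under all controls. Kap, the classical androgen-regulated kidney transcript, changed by -0.14 and did not pass. Cyp2d9, a male-specific P450 of mouse liver, rose by 1.10 (SE 0.22). Sex is not stated for any array, and whether the groups hold the same sexes was not tested.

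Of 10 enzymes that set local levels of steroid and thyroid hormones 4 fell and 2 rose, with a median of -0.43. Hsd11b1, which regenerates active glucocorticoid, had 7700, 7633 and 11121 against 2605, 1780 and 2540 (-1.93, SE 0.26, adjusted p from limma 0.00114). Hsd17b2, which inactivates androgens and oestrogens, had 561, 565 and 464 against 155, 184 and 155, and with 2 db/db arrays at the floor the measured change of -1.68 is a limit (adjusted p from limma 0.000464). Hsd17b11, a related enzyme of lipid droplets, fell by 1.26 (SE 0.19). Dio1, which turns thyroxine into active thyroid hormone, had 1354, 1235 and 1066 against 417, 448 and 526 and the groups were well apart (-1.40, SE 0.19, adjusted p from limma 0.00110). The 2 that rose were Cyp21a1, a hydroxylase of adrenal steroid synthesis (0.77, SE 0.17), and Hsd17b10, a mitochondrial dehydrogenase (0.47, adjusted p from limma 0.0213). The call of Hsd17b10 ended without db/m replicates 1 and 2 (0.0599 and 0.0696), without db/db replicates 1 and 3 (0.0873 and 0.0608) and with a common median (0.862).

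Of 22 glucocorticoid-responsive genes 6 rose (27.3%, against 8.34% over all genes) and none fell. Their median was 0.88, the highest of the pathway lists drawn in the plot of lists. Zbtb16, a transcription factor that glucocorticoids induce strongly, had 241, 296 and 232 on the db/m arrays and 816, 910 and 967 on the db/db arrays, a gap of more than 2-fold between the nearest values (1.81, SE 0.42, adjusted p from limma 0.0136). Pck1, the committed enzyme of glucose production in the proximal tubule, had 11352, 10412 and 9528 against 22751, 19035 and 16203 (0.88, SE 0.17, adjusted p from limma 0.00661, and 0.132 with a common median). Sgk1, a kinase that raises sodium uptake in the distal nephron, had 4981, 6506 and 2761 against 10720, 10122 and 9055 (1.15, SE 0.28, adjusted p from limma 0.0180, and 0.0773 with a common median), and its call ended without db/db replicate 1 (0.0621). The other members called were Igfbp1 and Mt1, given above, and Cebpd, a transcription factor (1.81), whose call ended without db/m replicate 1 (0.0629), without db/m replicate 2 (0.0513), and without db/db replicates 1 and 3 (0.0501 and 0.0552). With a common median 3 of the 22 rose, and with the covariate of actin and pyruvate carboxylase none did, while the median was 0.98. Without db/db replicate 1 there were 4 calls. The sign of the median was positive under both scalings. Of 4 adrenal markers tested 2 rose, Nr5a1 by 0.96 and Cyp21a1 by 0.77, and the changes of the 4 ran from -0.13 to 1.44. The summed intensity of 10 adrenal markers was 7811 to 9094 on the db/m and 12415 to 17971 on the db/db arrays, and Cyp11a1 was at the floor on all 6 arrays. Their part in the result was not tested.

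A promoter of Sgk1 is shown because it carries the palindromic form of the glucocorticoid response element, whose outer 6 bases on either side mirror each other around 3 free bases. It is 1 of 6 promoters that RefSeq's GRCm38.p6 table lists for the gene, and the stretch at chr10:21993681-21993735 (plus strand) ends 154 bases before the start. Capitals mark the element. The search asked for the 6 outer bases on each side as they stand here and left the 3 in the middle free, so both strands give the same matches.
Sgk1: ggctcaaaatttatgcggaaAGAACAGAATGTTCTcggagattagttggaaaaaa
The element was found in 3 of 32851 promoters (0.00913%), each searched over the 250 bases before the start. The array does not tell which of the 6 promoters was used. The match describes the letters only, and matches in the other glucocorticoid-responsive genes were not counted.

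Transport genes of the proximal tubule included 3 of 49 that rose (6.12%) and 7 that fell (14.3%), against 8.34% and 11% over all genes. The number that fell was 5, 5 and 4 without db/m replicates 1, 2 and 3 and 4, 6 and 4 without db/db replicates 1, 2 and 3. Slc15a2, the high-affinity peptide transporter, had 4502, 4198 and 3782 against 1486, 2004 and 1840 (-1.24, SE 0.15, adjusted p from limma 0.000611). Slc22a2, an organic cation transporter, fell by 1.18 (SE 0.25) and Mep1b, a brush border protease, by 1.65 (SE 0.34). Slc3a2, the heavy chain of amino acid exchangers, rose by 0.78 (SE 0.17, adjusted p from limma 0.0104, and 0.292 with a common median). None of 5 glucose transport genes passed, though their median was 0.50. In the distal nephron 3 of 32 genes rose (9.38%), near the 8.34% over all genes, and none fell. The median over the 32 was 0.17 and became -0.28 with a common median. The 3 were Calb1, Sgk1 and Atp4a, the gastric type proton pump subunit, which had 2448, 2147 and 1872 against 3985, 4589 and 4737, without overlap (1.05, SE 0.17, adjusted p from limma 0.00292). Summed markers of the proximal tubule were 533806 to 536837 in db/m and 494198 to 507404 in db/db kidneys, those of the distal convoluted tubule 87107 to 95823 and 107881 to 122481. Neither pair of ranges overlapped, but the sums were taken after quantile normalisation only. With a common median the median change of the proximal tubule markers was -0.62 instead of -0.13. That of the distal convoluted tubule markers was -0.22 instead of 0.25. Calb1 is itself a marker of the distal convoluted tubule, and without it the sums were 77659 to 87191 and 87386 to 97159. Their part in these results was not tested.

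In the renin-angiotensin system Ace, which makes angiotensin II and sits on the proximal brush border, had 1562, 1546 and 1756 on the db/m and 501, 588 and 567 on the db/db arrays (-1.56, SE 0.18, adjusted p from limma 0.000531). A second probe set fell by 1.98, and neither set of values overlapped. Agt, the precursor, did not pass (-0.27). Of 7 genes of the system 1 rose and 1 fell. Alox15, a lipoxygenase that forms hydroxylated arachidonic acid, had 999, 907 and 1311 against 155, 262 and 155, and its measured change of -2.52 is likewise a limit, with 2 db/db arrays at the floor (adjusted p from limma 0.000630).

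Drug-metabolising enzymes changed in both directions, 7 of 33 upward and 7 downward (21.2% each, against 8.34% and 11% over all genes). Without db/m replicates 2 or 3 or db/db replicate 3 there were 5 upward and 4 downward. Aldh1a1, which makes retinoic acid, had 3193, 2856 and 2673 against 6617, 7603 and 7727 (1.33, SE 0.15, adjusted p from limma 0.000531), and its relative Aldh1a7 rose by 1.54 (SE 0.24). Their sequences are close, so a probe set may read both. Fmo5, a flavin monooxygenase, had 1596, 1983 and 2536 against 242, 380 and 285 (-2.75, SE 0.25, adjusted p from limma 0.000194), and Ugt2b5, a glucuronosyltransferase, fell by 2.19 (SE 0.28). The groups did not overlap in any of these 4 genes.

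Of 44 RNA processing genes tested 1 rose (2.27%) and 10 fell (22.7%), against 8.34% and 11% over all genes. The number that fell was 6 without db/m replicate 1, 2 or 3, and 7, 7 and 6 without db/db replicates 1, 2 and 3. With the covariate of actin and pyruvate carboxylase 1 was lower and none higher, with a median of -0.31. Of 33 splicing proteins of the hnRNP and SR families 5 fell (15.2%), with a median of -0.05. After quantile normalisation all 11 genes of the nuclear pore and its transport cycle had a change below 0, from -2.83 to -0.19, and 5 of them fell, with a median of -0.37. Nup54, which lines the central channel, had 1108, 1437 and 1500 on the db/m arrays and 155, 274 and 155 on the db/db arrays, with replicates 1 and 3 at the floor, so that the measured change of -2.83 is a limit (adjusted p from limma 0.000185). Nup50, on the nuclear side, had 1951, 2635 and 2557 against 773, 1181 and 932 (-1.32, SE 0.21, adjusted p from limma 0.00275). Rangap1, which resets the transport GTPase Ran, had 1555, 1838 and 2044 against 789, 1012 and 714 (-1.12, SE 0.17, adjusted p from limma 0.00223), and its second probe set fell by 1.61. None of the 3 overlapped between groups. The call of Nup88 (-0.51) ended without each array but db/db replicate 2 (adjusted p from limma 0.0550 to 0.159), that of Ran (-0.51) without any of the 6 (0.0729 to 0.104), and with 1 array left out 3 of the 11 were called, or 4 without db/db replicate 2. Both were chosen after their values were seen. Among splicing proteins, Hnrnpm fell by 1.12 (SE 0.20) and Hnrnpl rose by 2.15 (SE 0.32).

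Protein folding genes of the endoplasmic reticulum included 4 that rose of 16 (25%, against 8.34% over all genes), and none fell. The median was -0.10, or 0.06 with the values as deposited. P4hb, the disulfide isomerase that also serves collagen hydroxylation, had 843, 916 and 1308 against 5675, 3549 and 4786 (2.19, SE 0.35, adjusted p from limma 0.00292). Pdia3, its relative in glycoprotein folding, had 1778, 3290 and 4535 against 10690, 11352 and 10567 (1.87, SE 0.27, adjusted p from limma 0.00188). The groups were apart in both. Dnajb9, a target of the unfolded protein response, rose by 1.22 (SE 0.26). Of the 16 genes, the number that rose was 2, 3 and 3 without db/m replicates 1, 2 and 3. Without db/db replicates 1, 2 and 3 it was 2, 4 and 2. Canx alone does not account for these drops, so another call among the 16 also depended on single arrays. Canx, calnexin, rose by 1.12 and lost its call without db/m replicate 1 (0.0925) and without db/db replicates 1 and 3 (0.0928 and 0.107). In the cytosol 2 of 28 folding genes rose (7.14%) and 4 fell (14.3%), against 8.34% and 11% over all genes. The number that fell was 2 without db/m replicate 1 or 3 or db/db replicate 3. Among the 4 were the HSP70 partners Dnajb1 (-0.96, SE 0.22) and Dnaja1 (-0.74, SE 0.14). Of 33 proteasome subunits 1 rose (3.03%) and 5 fell (15.2%), with a median of -0.22, and none was higher and 19 lower with a common median. The number that fell was 1, 2 and 3 without db/m replicates 1, 2 and 3 and 4, 6 and 1 without db/db replicates 1, 2 and 3, and none rose without any of them. Psmb1 fell by 0.77 (SE 0.15). Of 58 subunits of the respiratory chain and ATP synthase 6 rose (10.3%, near the 8.34% over all genes) and 1 fell (1.72%), with a median of 0.01. The number that rose was 2, 3 and 2 without db/m replicates 1, 2 and 3 and 3, 3 and 2 without db/db replicates 1, 2 and 3, and none fell. The direction turned with the scaling: 3 were higher and 24 lower with a common median (median -0.44), and 3 higher and 5 lower with the values as deposited (-0.11).

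**Figure D4:**
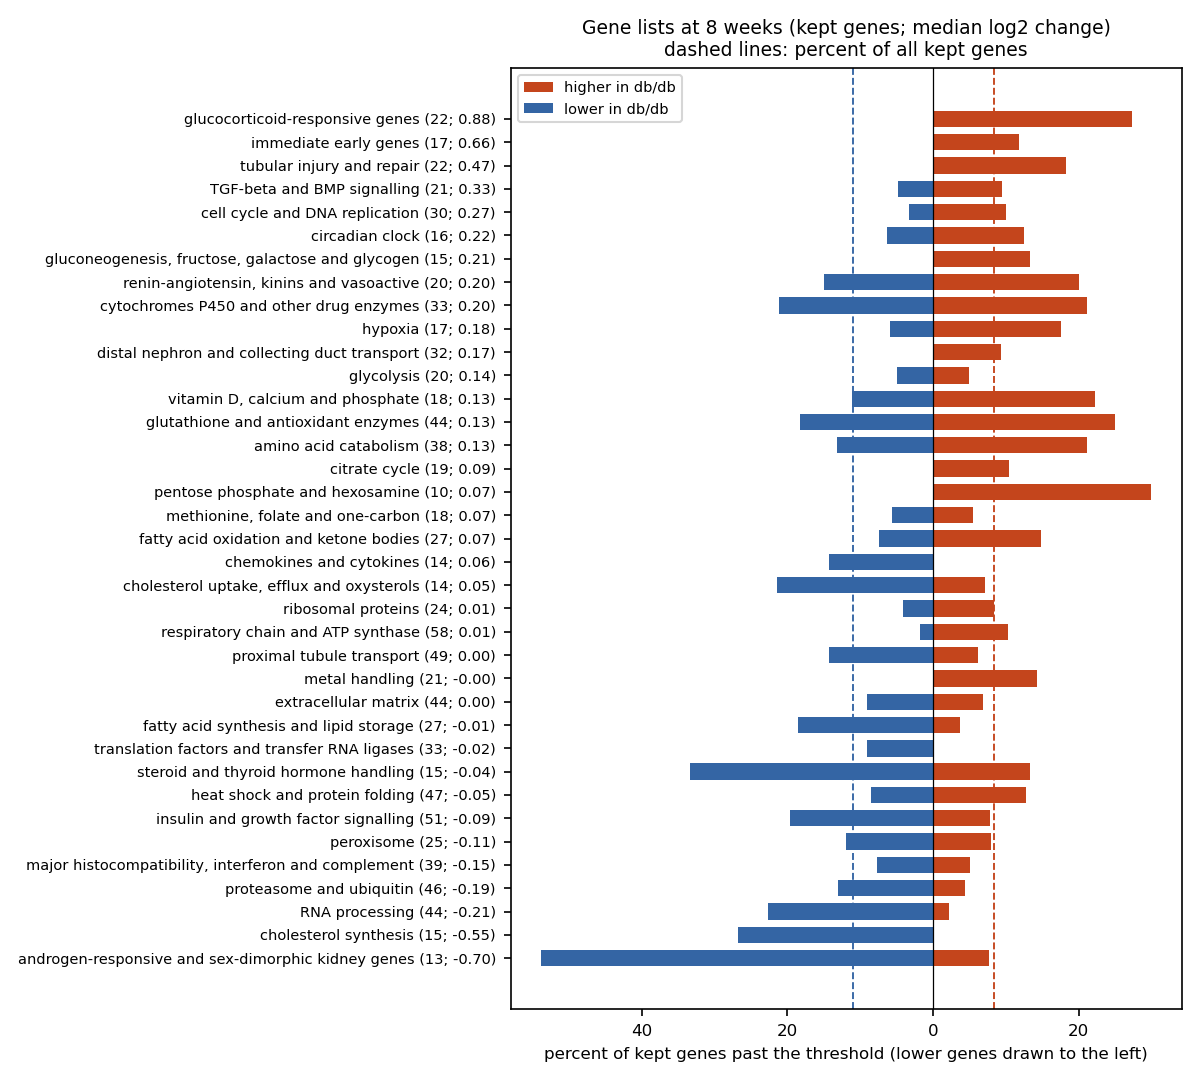
Percent of the tested genes of each pathway list with at least 10 of them that rose or fell at 8 weeks, ordered by the list's median change. Dashed lines mark the shares over all 5360 genes, 8.34% upward and 11% downward, and the lists run from glucocorticoid-responsive genes with a median of 0.88 to androgen-responsive genes with -0.70.

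Of 44 matrix genes 3 rose (6.82%) and 4 fell (9.09%), near the 8.34% and 11% of all genes. With the values as deposited 9 were higher and 4 lower, and with a common median 3 and 8. Col1a2, a chain of the main fibrillar collagen, had 2240, 2477 and 1894 against 6519, 3974 and 5482 (1.25, SE 0.23, adjusted p from limma 0.00478), and Col15a1, a collagen of basement membrane zones, 798, 977 and 676 against 160, 252 and 357 (-1.73, SE 0.35, adjusted p from limma 0.00734). Neither overlapped between groups. Col4a1, of the glomerular and tubular basement membrane, did not pass (0.00), and Lama5, the laminin chain of the mature glomerular basement membrane, fell by 0.68 (SE 0.15) while a second probe set changed by -0.18. The summed fibroblast markers were 11651 to 13830 in db/m and 15213 to 19241 in db/db kidneys, and without Col1a2, itself a member, they overlapped at 9757 to 11353 and 10544 to 12722. In the list of tubular injury and repair 4 of 22 genes rose (18.2%, against 8.34% over all genes) and none fell. The median was 0.47, while with a common median 2 were higher and 2 lower. Without db/m replicates 1, 2 and 3 the number that rose was 2, 3 and 2, and without db/db replicates 1, 2 and 3 it was 2, 4 and 3. Clu, clusterin, rose by 0.94 (SE 0.18, adjusted p from limma 0.00595, and 0.0700 with a common median). Plau, the urokinase of tubules, is outside the injury list, in which the highest change was 1.42. Its intensities were 228, 305 and 318 against 840, 1029 and 826 (1.67, SE 0.23, adjusted p from limma 0.00140). The injury marker Lcn2 did not pass (0.30).

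Of 39 genes of histocompatibility, interferon and complement 2 rose (5.13%) and 3 fell (7.69%), near the shares over all genes. With the values as deposited 6 were higher and 3 lower, and with a common median 3 and 7. H2-M9, a class I-like gene, rose by 2.15 (SE 0.28), and Ifi35, an interferon-induced gene, had 738, 703 and 562 on the db/m arrays and the floor value on each db/db array, at least 4.27-fold lower (adjusted p from limma 0.00373). Csf1r, the macrophage growth factor receptor, fell by 0.94 (adjusted p from limma 0.0126) and lost its call without db/db replicate 3 (0.0533), while summed macrophage markers were 10049 to 10518 against 9653 to 10317. Ptpn22, a phosphatase of lymphocytes, had 867, 1422 and 979 against 314, 155 and 155, so that its measured change of -2.44 is a limit, with 2 db/db arrays at the floor (adjusted p from limma 0.00414). The defining T cell markers Cd3d, Cd3e and Cd3g were at the floor on all 6 arrays.

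A beta-globin transcript and that of albumin were also higher. Hbb-b2, a beta-globin, had 8870, 4024 and 6793 against 26917, 15133 and 16011 (1.58, SE 0.34, adjusted p from limma 0.0107), and the summed red cell markers were 43284 to 68175 against 77027 to 103351. Hbb-b2 was the 1 gene that rose of 5 red cell markers tested and is itself part of their sum, which was not taken without it. The median change of the 5 markers, 0.42, became -0.09 with a common median. Alb, albumin, had 507, 421 and 185 against 1171, 1224 and 1151 (1.80, SE 0.33, adjusted p from limma 0.00533), while summed liver and pancreas markers overlapped at 12742 to 16811 and 15725 to 19333 and 4 of the 13, Apoa1, Fgb, Ahsg and Ins2, were at the floor throughout. The groups did not overlap in either gene.

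Among the other genes with large changes, H3c14, a histone H3 gene, had 15065, 10948 and 12603 on the db/m and 3029, 2701 and 2494 on the db/db arrays (-2.22, SE 0.22, adjusted p from limma 0.000298). Men1, the tumour suppressor menin, had 724, 1114 and 990 against 182, 202 and 155 (-2.38, SE 0.20, adjusted p from limma 0.000185). Both fell with a wide gap between the groups, and Men1 had 1 db/db array at the floor. Foxm1, a transcription factor of dividing cells, had 406, 1678 and 720 against 4427, 3011 and 3185, and the controls scattered more than the db/db arrays (2.15, SE 0.47, adjusted p from limma 0.0107). None of the 12 genes of replication and mitosis passed.

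Some genes had probe sets that passed in opposite directions. Of 48 genes with at least 2 called probe sets 37 had the same direction throughout and 11 did not. Commd9 rose by 1.12 on the brighter probe set and fell by 1.29 on another, Cnbp fell by 0.50 and rose by 0.74, Igbp1 fell by 0.57 and rose by 0.76, and Galnt3 rose by 0.60 and fell by 0.89. Ptgds, a prostaglandin D synthase, rose by 0.78 although its groups overlapped, and fell by 1.63 on a dimmer probe set. Sequences of the probes were not used here, so which transcripts each one reads was not tested.

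Most changes of 8 weeks had the same sign at 16 weeks. The contrasts of the 2 ages share no array, but the normalisation, filter and variance come from all 12. Of the 1323 probe sets 1224 (92.5%) had the same sign, against 75.7% of all tested, and 826 were also called in that direction, which is 62.4% of the calls at 8 weeks and 35.1% of the 2353 at 16 weeks. The correlation of the changes across probe sets was 0.662. It is a description, since probe sets are not independent. The RNA quality controls moved with genotype at both ages: at 16 weeks the 3' to 5' ratio of pyruvate carboxylase was 28.6 to 34.5 on db/m and 2.36 to 5.11 on db/db arrays, and that of actin 2.04 to 2.82 and 1.44 to 1.85. Their part in the shared changes was not tested. Called in opposite directions were 8 probe sets.

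The test of the difference between the ages found 8 probe sets (0.115%), and 1087 had an unadjusted p under 0.05. Dio1 fell by 1.40 at 8 weeks and changed by 0.47 at 16 weeks, a difference of 1.86 (SE 0.26, adjusted p from limma 0.0258). Lama5 went from -0.68 to 0.84, Plin2 from -0.36 to 2.61 and Rras, a small GTPase, from -0.25 to 1.80. Lama3, a laminin chain, went from -0.54 to -2.15 and Hsd3b2, a steroid dehydrogenase, from -0.34 to -1.80. Of these 6 genes 4 passed the difference without passing at 8 weeks. Several genes with strong changes at 8 weeks and little or the opposite at 16 weeks missed the threshold of the difference: Cyp27b1 went from 3.36 to -1.57 (adjusted p from limma 0.0770), Igfbp1 from 1.46 to -0.94 (0.0768), Ptpn22 from -2.44, a limit, to 0.97 (0.0638) and Acy3 from -1.49 to -0.33 (0.0875). No difference passed with the replicate number as a block, and 1 to 16 did when 1 of the 6 arrays of 8 weeks was left out. The arrays of 16 weeks were not left out in turn.

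**Figure D5:**
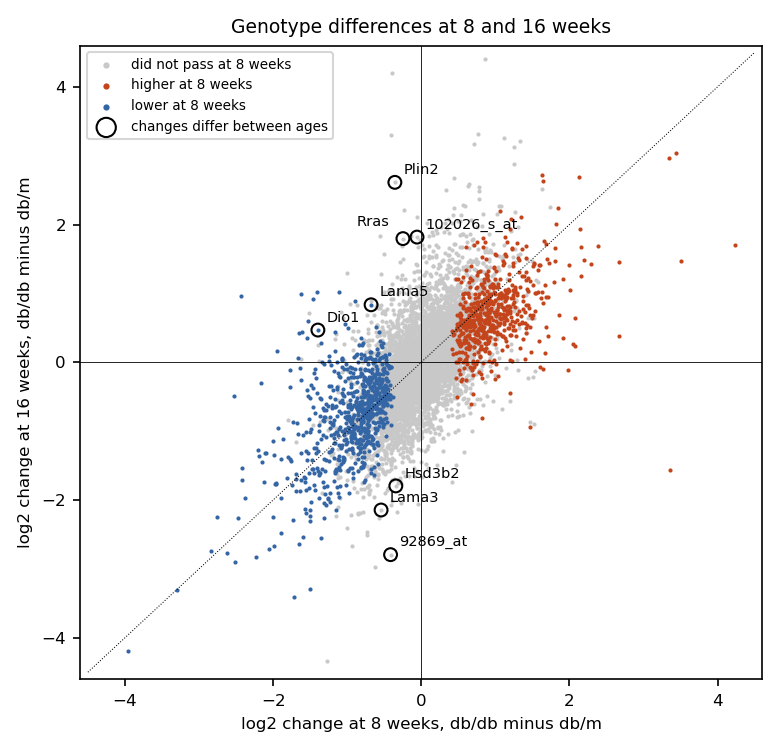
Change at 16 weeks (vertical) against change at 8 weeks (horizontal), both as log2 intensity of db/db minus db/m, for the 6949 probe sets tested. Circles mark the 8 probe sets whose change differed between the ages, among them Plin2 at -0.36 and 2.61 and Dio1 at -1.40 and 0.47.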

How the data were processed

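Whole-kidney RNA was measured on 12 Affymetrix mouse arrays, 3 per genotype and age, and groups were taken from the sample titles. A keyword reads db/m on every sample, those titled db/db included. Each deposited table value is a linear intensity, made by the authors for 12488 probe sets, and the trimmed mean of every array is close to 1501. The software is not given in the sources used here. The number of arrays, not a depth, limits the precision.

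After 66 control probe sets were set aside, intensities were quantile normalised over the 12 arrays, raised to a floor at the 30th percentile (155), and log2 values were taken. Probe sets above the 50th percentile (475) on at least 3 arrays were kept. The model, from limma 3.58.1 under R 4.3.3, had 1 mean for each of the 4 groups (8 residual and 3.34 prior degrees of freedom), with two-sided tests. Simulated data with known changes were used to test the script. In the array annotation 10833 probe sets have 1 symbol, 396 have several and 1193 have none, and 125 called probe sets have no name here. Of 1808 listed symbols 1806 matched the GRCm38.p6 gene table, which was used for names and promoters only, and 1022 were tested.

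Members and lists were chosen with earlier results of these data known. A gene is represented by its brightest probe set. Genes were named as the 15 largest changes each way, up to 5 called genes each way and 3 not called per list, genes that differ between ages, genes with opposed probe sets, the 10 brightest called, and members of small enzyme chains. The largest changes, the called genes of the lists and the 10 brightest were taken only from genes whose groups did not overlap. Not every gene the rule allows is printed. The replicate numbers gave no pairing: 1 of 18 same-numbered pairs correlated above 0.1 after group means were removed, with a mean of -0.047. Alternatives changed the scaling, floor, filter, variance model, array weights, arrays fitted, replicate block and covariates from 3' to 5' ratios, and left out each array in turn.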

Additional observations from a re-analysis of the deposited data

Results flagged for a closer look

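The change between genotypes differed between 16 and 8 weeks, by the test of that difference, for 8 probe sets. As 16 week minus 8 week change on the log2 scale, the differences were 2.97 for Plin2, 2.04 for Rras, 1.86 for Dio1, 1.51 for Lama5, -1.45 for Hsd3b2 and -1.60 for Lama3. A pair of probe sets without a gene name had -2.38 (changes of -0.41 and then -2.79) and 1.88 (-0.06 and then 1.82). Their adjusted p from limma was 0.00585 to 0.0464. Groups of 3 arrays were not tested for single outlying arrays.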

How the results depend on the processing

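The 1323 calls became 1688 with the values as deposited (1072 upward), 2159 with a common median (1749 downward), 1062 without a filter, 1299 with a filter on 6 of 12 arrays, 1280 and 1412 with the floor at the 10th and 40th percentile, 1429 with a trended robust variance, 2358 with array weights (1117 upward, 1241 downward), 1822 with only the 6 arrays of 8 weeks, 603 with a covariate of the actin and Gapdh ratios and 123 with one of actin and pyruvate carboxylase. Leaving out 1 array gave 658 to 1174. Calls upward were 302 and 57 with the covariates and 276 to 547 without 1 array, and calls downward 301 and 66, and 382 to 627. With the replicate number as a block 1029 were called, 469 upward and 560 downward. Differences between ages numbered 13 without a filter, 19 with the higher floor, 52 with the trend, 1167 with array weights, 2 and 0 with the covariates, 0 with the block and 1 to 16 without 1 of the 6 arrays of 8 weeks.

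Of 222 named genes that passed, 111 did so without each of the 6 arrays in turn, 180 with a common median and 41 with actin and pyruvate carboxylase. With a common median these genes, none of which had passed, changed sign: Ahcy -0.41, Aldoa -0.40, Atp5a1 -0.45, Eif3c -0.47, Gstm1 -0.41, Sdhb -0.50, Slc34a1 -0.45, Slc37a4 -0.48 and Umod -0.47. Another probe set reversed Cnbp (0.74), Commd9 (-1.29), Galnt3 (-0.89), Igbp1 (0.76) and Ptgds (-1.63). The cause was not tested.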
